A study of Mus musculus with 3 samples.

Results

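The regions described here are all ATAC-seq peaks in 9 windows of the mouse autosomes picked because the number of peaks called differed between libraries, although some bins outside them differed by as much as some of them. ATAC-seq uses a transposase to cut and tag open DNA, and a peak is a stretch where the cuts pile up above a local background. The windows hold 2430 of the 390864 peaks in the 3 deposited lists, and 1428 of the 204313 regions made by merging the lists. They were chosen from the peak calls themselves, so the difference in calls between the libraries is a description of how they were picked, and no test was made on it. Corticospinal motor neurons (CSMN), which send axons to the spinal cord, were represented by 1 library. Callosal projection neurons (CPN), which connect the hemispheres, were represented by 2 libraries, CPN 1 and CPN 2. Both cell types were sorted from mouse brain by FACS at 50000 cells per library, and the labels name no treatment. No source used here gives the strain, age or genotype of the animals, or says whether CSMN and CPN came from the same ones.

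Many of these windows are blocks of tandem duplicates, where closely related genes lie side by side and reads cannot always be placed on a single copy. Mouse strains carry different numbers of copies of such blocks. A strain with more copies than the reference genome gives more reads on the few copies that the reference holds, in peaks and between them alike, whereas opening of chromatin raises reads mainly in the peaks. Zinc finger genes of the KRAB type, which encode repressors of transposable elements, defensins, which encode antimicrobial peptides, and the Sp100 family, which encodes proteins of nuclear bodies, are all known to expand in this way. Cwc22 encodes a splicing factor that helps to load the exon junction complex, and it lies in a segment of chromosome 2 known to vary in copy number among mice.

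The windows are named here by their leading gene, and their coordinates are in mm10 (GRCm38.p6). The Gm15319 window is chr8:19000001-21000000. The Sp140 window is chr1:85000001-86000000. The Gm3072 window is chr14:41000001-42000000 and the Gm8104 window is chr14:43000001-44000000. The Zfp982 window is chr4:147000001-148000000. The Gm17019 window is chr5:15000001-16000000. The 2410141K09Rik window is chr13:66000001-67000000. The Cwc22 window is chr2:77000001-78000000. The last window is Zfp970 with 500 kb on each side, at chr2:176964742-177979194. The first 8 were picked for an excess of CSMN peaks and the last for an excess of CPN peaks.

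The promoters show which windows repeat themselves in the reference genome. Promoter sequences (RefSeq, GRCm38.p6, 250 bases before to 50 after a gene's start) were held for 137 genes of the windows. Of these genes 71, or 51.8%, had a promoter sharing an exact run of 50 bases with the promoter of another gene within 2 Mb on the same chromosome, against 1339 of 25611 autosomal genes outside the windows, or 5.23%. The share was 94.4% in the Gm8104 window, 66.7% in the Gm3072 and Gm17019 windows, 57.1% in the 2410141K09Rik window, 43.8% in the Zfp982 window, 42.9% in the Zfp970 window, 38.1% in the Gm15319 window and 33.3% in the Sp140 window. It was 0 of 9 genes in the Cwc22 window, so the promoters there do not show the repetition that the other windows share.

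The most alike promoters are printed to show how closely the copies resemble each other. Those chosen are pairs of 1 window with a peak at at least 1 member, and the identical promoters of the Gm15319 window. In each pair, capitals mark bases that differ from the partner, all sequences read 5′ to 3′ on the strand of the gene, and identity is counted by edit distance over 300 bases. On chromosome 8, Gm15319 (minus strand, chr8:20363153-20363452) and Gm21119 (plus strand, chr8:20614677-20614976) have promoters that are 100% identical, printed once, and no library had a peak overlapping either.
Gm15319: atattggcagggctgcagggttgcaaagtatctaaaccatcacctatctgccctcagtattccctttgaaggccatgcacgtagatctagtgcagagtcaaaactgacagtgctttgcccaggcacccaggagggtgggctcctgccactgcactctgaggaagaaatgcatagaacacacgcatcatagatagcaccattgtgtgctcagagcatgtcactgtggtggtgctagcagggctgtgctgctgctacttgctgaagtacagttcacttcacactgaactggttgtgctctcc

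On chromosome 1, Gm7609 (plus strand, chr1:85199361-85199660) and Sp100 (plus strand, chr1:85649764-85650063) are 97.0% identical. The CSMN list had a peak of pileup 49 at the Gm7609 promoter and no CPN list had one there.
Gm7609: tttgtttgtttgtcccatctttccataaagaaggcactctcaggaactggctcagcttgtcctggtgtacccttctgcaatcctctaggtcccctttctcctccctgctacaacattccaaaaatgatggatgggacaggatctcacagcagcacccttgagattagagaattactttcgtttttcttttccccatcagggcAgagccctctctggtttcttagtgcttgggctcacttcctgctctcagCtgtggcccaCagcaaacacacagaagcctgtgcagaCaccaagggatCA
Sp100: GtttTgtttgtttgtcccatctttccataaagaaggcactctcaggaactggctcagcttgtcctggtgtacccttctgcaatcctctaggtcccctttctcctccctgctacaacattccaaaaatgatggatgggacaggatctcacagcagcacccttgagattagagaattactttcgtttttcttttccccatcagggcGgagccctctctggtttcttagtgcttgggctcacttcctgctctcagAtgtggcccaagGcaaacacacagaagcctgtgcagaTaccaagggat

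On chromosome 14, Gm3072 (minus strand, chr14:41624601-41624900) and Gm7954 (minus strand, chr14:41453507-41453806) are 99.3% identical. Both promoters had a peak in the CSMN list, with pileups of 61 and 35, and none in either CPN list.
Gm3072: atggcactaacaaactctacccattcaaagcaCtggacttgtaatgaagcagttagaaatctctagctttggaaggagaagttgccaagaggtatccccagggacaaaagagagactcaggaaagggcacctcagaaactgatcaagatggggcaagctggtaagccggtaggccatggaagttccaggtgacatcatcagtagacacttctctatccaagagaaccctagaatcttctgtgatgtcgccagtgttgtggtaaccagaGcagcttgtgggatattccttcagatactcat
Gm7954: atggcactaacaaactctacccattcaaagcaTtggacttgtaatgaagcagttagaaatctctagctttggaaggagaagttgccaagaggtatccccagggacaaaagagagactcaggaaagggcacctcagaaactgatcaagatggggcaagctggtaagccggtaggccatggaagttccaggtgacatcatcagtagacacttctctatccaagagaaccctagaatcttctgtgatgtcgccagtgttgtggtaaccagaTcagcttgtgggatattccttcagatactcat

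Also on chromosome 14, Gm21162 (minus strand, chr14:43517010-43517309) and Gm8094 (minus strand, chr14:43076465-43076764) are 97.3% identical. The Gm8094 promoter had a CSMN peak of pileup 24 and no CPN peak, and the Gm21162 promoter had none in any list.
Gm21162: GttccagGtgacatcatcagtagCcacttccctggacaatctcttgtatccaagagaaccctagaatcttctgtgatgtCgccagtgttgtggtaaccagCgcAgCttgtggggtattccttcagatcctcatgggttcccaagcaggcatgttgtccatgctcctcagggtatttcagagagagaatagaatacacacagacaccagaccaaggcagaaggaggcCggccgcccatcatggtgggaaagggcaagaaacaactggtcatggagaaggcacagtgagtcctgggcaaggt
Gm8094: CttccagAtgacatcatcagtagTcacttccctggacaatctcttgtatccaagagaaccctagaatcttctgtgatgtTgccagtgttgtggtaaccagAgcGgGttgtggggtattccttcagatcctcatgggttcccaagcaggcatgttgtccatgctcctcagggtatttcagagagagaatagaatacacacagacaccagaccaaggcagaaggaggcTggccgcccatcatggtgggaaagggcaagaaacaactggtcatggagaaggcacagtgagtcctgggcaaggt

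On chromosome 5, Speer4c (minus strand, chr5:15714222-15714521) and Gm17019 (minus strand, chr5:15032958-15033257) are 98.0% identical. The Speer4c promoter had peaks in all lists, with pileups of 68 in CSMN, 50 in CPN 1 and 40 in CPN 2. The libraries have the same order of depth, so these pileups cannot be read as an excess in CSMN.
Speer4c: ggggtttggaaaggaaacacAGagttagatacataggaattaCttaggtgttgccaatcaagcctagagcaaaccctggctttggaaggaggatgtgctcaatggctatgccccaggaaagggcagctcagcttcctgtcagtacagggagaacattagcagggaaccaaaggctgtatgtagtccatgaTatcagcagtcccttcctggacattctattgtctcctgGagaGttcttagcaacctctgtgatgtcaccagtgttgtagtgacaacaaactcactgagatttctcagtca
Gm17019: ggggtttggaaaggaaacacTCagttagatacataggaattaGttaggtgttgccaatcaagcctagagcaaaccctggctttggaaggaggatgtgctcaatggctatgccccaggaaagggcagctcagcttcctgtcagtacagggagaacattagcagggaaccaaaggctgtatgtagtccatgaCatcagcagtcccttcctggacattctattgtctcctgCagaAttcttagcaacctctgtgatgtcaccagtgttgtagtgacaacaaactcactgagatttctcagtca

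In the Zfp970 window, Gm14322 (plus strand, chr2:177759038-177759337) and Gm14403 (plus strand, chr2:177497976-177498275) are 92.3% identical. Both had peaks in all lists. The pileups at Gm14322 were 87 in CSMN, 109 in CPN 1 and 73 in CPN 2, and those at Gm14403 were 106 in CSMN, 212 in CPN 1 and 152 in CPN 2.
Gm14322: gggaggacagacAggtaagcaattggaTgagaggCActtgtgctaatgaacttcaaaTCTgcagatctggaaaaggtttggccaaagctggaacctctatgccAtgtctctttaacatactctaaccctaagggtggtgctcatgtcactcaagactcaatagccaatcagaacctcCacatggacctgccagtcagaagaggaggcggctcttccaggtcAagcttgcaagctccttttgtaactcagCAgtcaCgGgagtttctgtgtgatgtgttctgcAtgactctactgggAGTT
Gm14403: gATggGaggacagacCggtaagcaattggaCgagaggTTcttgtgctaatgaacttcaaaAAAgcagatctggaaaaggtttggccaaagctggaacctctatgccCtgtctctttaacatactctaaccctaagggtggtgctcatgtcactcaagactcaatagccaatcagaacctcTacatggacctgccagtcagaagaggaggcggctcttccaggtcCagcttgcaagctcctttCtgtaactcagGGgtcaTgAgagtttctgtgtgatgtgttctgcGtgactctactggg

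The Cwc22 promoter (minus strand, chr2:77946307-77946606) is printed because it carries the strongest CSMN peak of its window. It has no close match there, its nearest being Zfp385b at 46.7%, and capitals here mark CG dinucleotides.
Cwc22: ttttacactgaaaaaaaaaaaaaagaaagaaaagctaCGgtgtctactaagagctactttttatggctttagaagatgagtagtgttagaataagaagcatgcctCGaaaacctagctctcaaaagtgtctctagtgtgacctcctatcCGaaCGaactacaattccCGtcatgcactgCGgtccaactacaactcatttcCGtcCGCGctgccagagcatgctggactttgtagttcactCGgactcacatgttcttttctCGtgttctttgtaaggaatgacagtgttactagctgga

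Over the 8 windows picked for CSMN, the CSMN list held 1129 peaks, CPN 1 held 477 and CPN 2 held 580, although the whole CSMN list was the shortest, with 98067 peaks against 134018 in CPN 1 and 158779 in CPN 2. Of the 1281 merged regions there, 658 had a peak in CSMN and in neither CPN list (CSMN-only), a share of 51.4%. Its Wilson 95% interval, 48.6 to 54.1%, covers counting error only and treats regions of 1 CSMN library as independent. The windows were picked for this excess, so the interval is no test against other regions. Of the 199374 autosomal regions outside the windows, 11.4% were CSMN-only. Regions called in CPN 1 and CPN 2 but not in CSMN (CPN-only) numbered 48 in the 8 windows, or 3.75%, where 19.6% of regions outside were CPN-only. The Zfp970 window went the other way, with 18 peaks in CSMN, 98 in CPN 1 and 128 in CPN 2. Its CPN-only regions numbered 60, or 40.8% of its regions, and its CSMN-only regions 2.

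The strength of the CSMN-only peaks differed between windows. Of the 658 CSMN-only regions of the 8 windows, 412, or 62.6%, had a −log10 q of at least 5, where 11.8% of CSMN-only regions outside did. The share was highest in the Gm15319 window, at 79.9% of 184 regions, and lowest in the Cwc22 window, at 36.6% of 41. Of the 60 CPN-only regions of the Zfp970 window, 44 or 73.3% reached that level in both CPN lists, where 60.1% of CPN-only regions outside did.

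**Figure D1:**
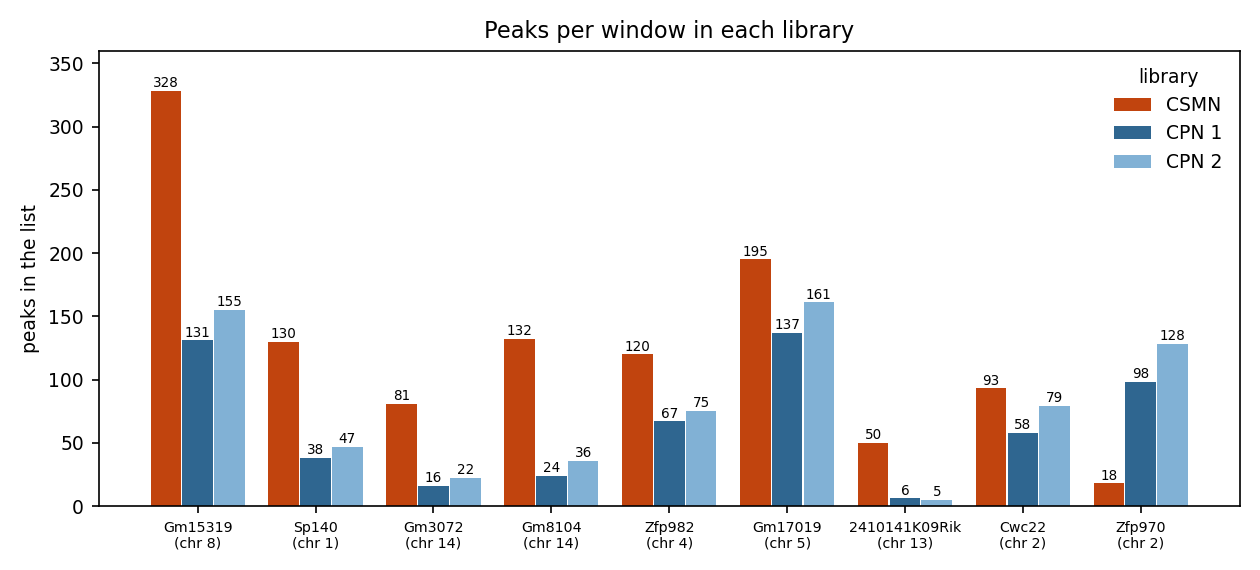
Number of peaks (y axis) in each of the 9 windows, named by leading gene and chromosome, with bars for CSMN, CPN 1 and CPN 2. CSMN has the most peaks in 8 windows, from 50 in the 2410141K09Rik window to 328 in the Gm15319 window, and the fewest in the Zfp970 window, with 18.

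On the caller's formulas as read here, the fold and the −log10 p of a peak give back its pileup (fragments or cuts stacked at the summit) and the local background it was tested against. The lowest local background of a list is its genome background, which was 10.5 in CSMN, 7.65 in CPN 1 and 5.84 in CPN 2 and serves as the measure of depth, since no source used here gives read totals. The relative pileup is the pileup over the genome background, and the background ratio is the local over the genome background. Pileups not called relative are not corrected for depth, which by this measure was highest in CSMN. With 1 CSMN library and no input DNA, copy number, the placement of reads on repeats and cell-type chromatin cannot be told apart here.

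Regions with a peak in all 3 lists allow the libraries to be compared at the same places. The log2 relative pileup of CSMN over the geometric mean of CPN 1 and CPN 2 had a median of −1.07 over the 60569 such regions outside the windows, with the 5th to 95th percentile from −1.93 to −0.17. Shared regions elsewhere were thus lower in CSMN, and values for the windows are read against −1.07. That baseline is not matched for peak strength. The median relative pileup of CPN 1 in shared regions was 9.15 outside. In the windows it ran from 3.73 (Gm8104) and 4.45 (Zfp982) to 28.5 (2410141K09Rik). A weak region is shared only if CSMN also called it, which limits how low its value can fall. Part of the rise above −1.07 in windows of weak peaks can come from this filter, which was not tested. The medians were 0.52 in the Gm15319 window (102 regions), 0.32 in the Zfp982 window (35 regions), −0.0046 in the Gm8104 window (12 regions), −0.12 in the Gm17019 window (97 regions), −0.50 in the Sp140 window (25 regions), −0.57 in the 2410141K09Rik window (3 regions), −0.66 in the Gm3072 window (9 regions), −0.84 in the Cwc22 window (35 regions) and −1.28 in the Zfp970 window (13 regions). Between the replicates, CPN 1 over CPN 2, the median lay between −0.30 and 0.05 in every window and was −0.09 outside.

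CSMN had the highest relative pileup of the 3 libraries in 78 of the 102 shared regions of the Gm15319 window, 18 of 35 in the Zfp982 window and 21 of 97 in the Gm17019 window, where 1.42% of shared regions outside did. In the rest of the windows picked for CSMN it was highest in 4 of 25 (Sp140), 3 of 12 (Gm8104), 3 of 35 (Cwc22), 1 of 3 (2410141K09Rik) and 0 of 9 (Gm3072). CSMN was highest in 128 of the 318 shared regions of the 8 windows, 78 of them in the Gm15319 window, and in 0 of 13 in the Zfp970 window. The local background set the same windows apart, but with no input DNA it comes from the same reads as the pileup. It can include reads of the peak itself, so it is not independent evidence. CSMN had the highest background ratio in 82 of 102 shared regions of the Gm15319 window, 66 of 97 in the Gm17019 window and 23 of 35 in the Zfp982 window, where 2.74% of those outside did. In other windows CSMN ranked highest in 4 of 12 (Gm8104), 5 of 35 (Cwc22), 2 of 25 (Sp140), 1 of 9 (Gm3072) and 1 of 3 (2410141K09Rik). In the Zfp970 window the background ratio of CSMN was the lowest of the 3 in 11 of 13, where 65.5% of those outside were.

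**Figure D2:**
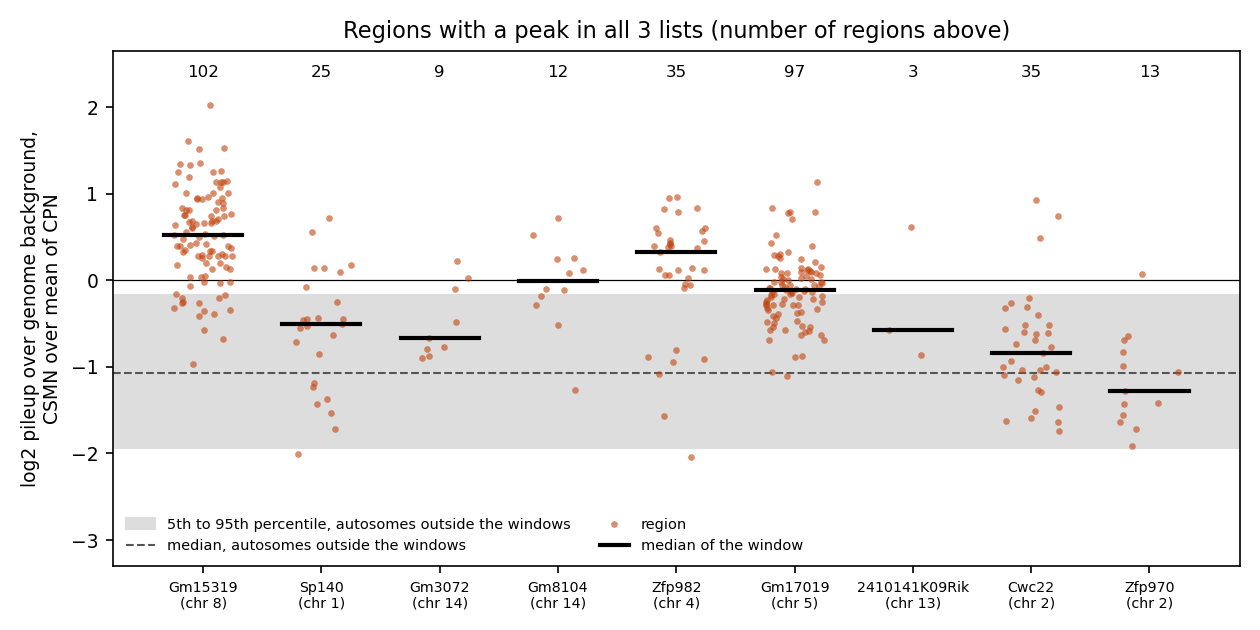
Log2 relative pileup of CSMN over the mean of CPN 1 and CPN 2 (y axis) in regions with a peak in all 3 lists, by window; points are regions, bars the median of the window, the dashed line the median (−1.07) and the grey band the 5th to 95th percentile of autosomal regions outside the windows. The Gm15319 and Zfp982 windows have medians above 0, at 0.52 and 0.32, and the Zfp970 window has the lowest, at −1.28.

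The Gm15319 window had the largest excess. It held 184 CSMN-only regions, 1 CPN-only region and 102 shared by all lists, and its second megabase ranked first of 2401 autosomal bins of 1 Mb for the excess of CSMN-only over CPN-only regions. The β-defensin genes that open the window were nearly without peaks: 8 of the 13 defensin genes, with 10 kb on either side, had no region in any list, and 2 had more CSMN-only than CPN-only regions, with 1 region between them. Most CSMN-only regions lay from near 4930467E23Rik on, in clusters that took in Gm15319 and Gm21119, protein-coding genes with provisional names. Gm15319 (chr8:20337664-20363202) had 20 CSMN-only regions within 10 kb and 0 CPN-only, and its highest pileup was 164 in CSMN, 74 in CPN 1 and 57 in CPN 2. 4930467E23Rik (chr8:19704311-19753603) had 12 and 0, with highest pileups of 401 in CSMN, 218 in CPN 1 and 188 in CPN 2. Gm21119 (chr8:20614404-20646749) had 10 and 0, with highest pileups of 103 in CSMN, 21 in CPN 1 and 45 in CPN 2.

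The strongest peaks of the Gm15319 window had similar relative pileups in all libraries, which places CSMN above the median of −1.07 of shared regions outside. Their log2 relative pileups of CSMN over CPN were 0.05 at Gm10060 and −0.06 at 2610005L07Rik. The region over the pseudogene Gm10060 (chr8:19784355-19785276) had pileups of 1807 in CSMN, 1509 in CPN 1 and 820 in CPN 2, and relative pileups of 172 in CSMN, 197 in CPN 1 and 140 in CPN 2. Its background ratio was 5.07 in CSMN, 5.62 in CPN 1 and 4.08 in CPN 2, so all libraries were far above their genome background there. The region over the transcribed pseudogene 2610005L07Rik (chr8:20424079-20425175) had relative pileups of 123 in CSMN, 131 in CPN 1 and 125 in CPN 2. The widest gap among shared regions was at chr8:20154103-20154601, between annotated coding genes, with pileups of 178 in CSMN, 32 in CPN 1 and 24 in CPN 2.

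**Figure D3:**
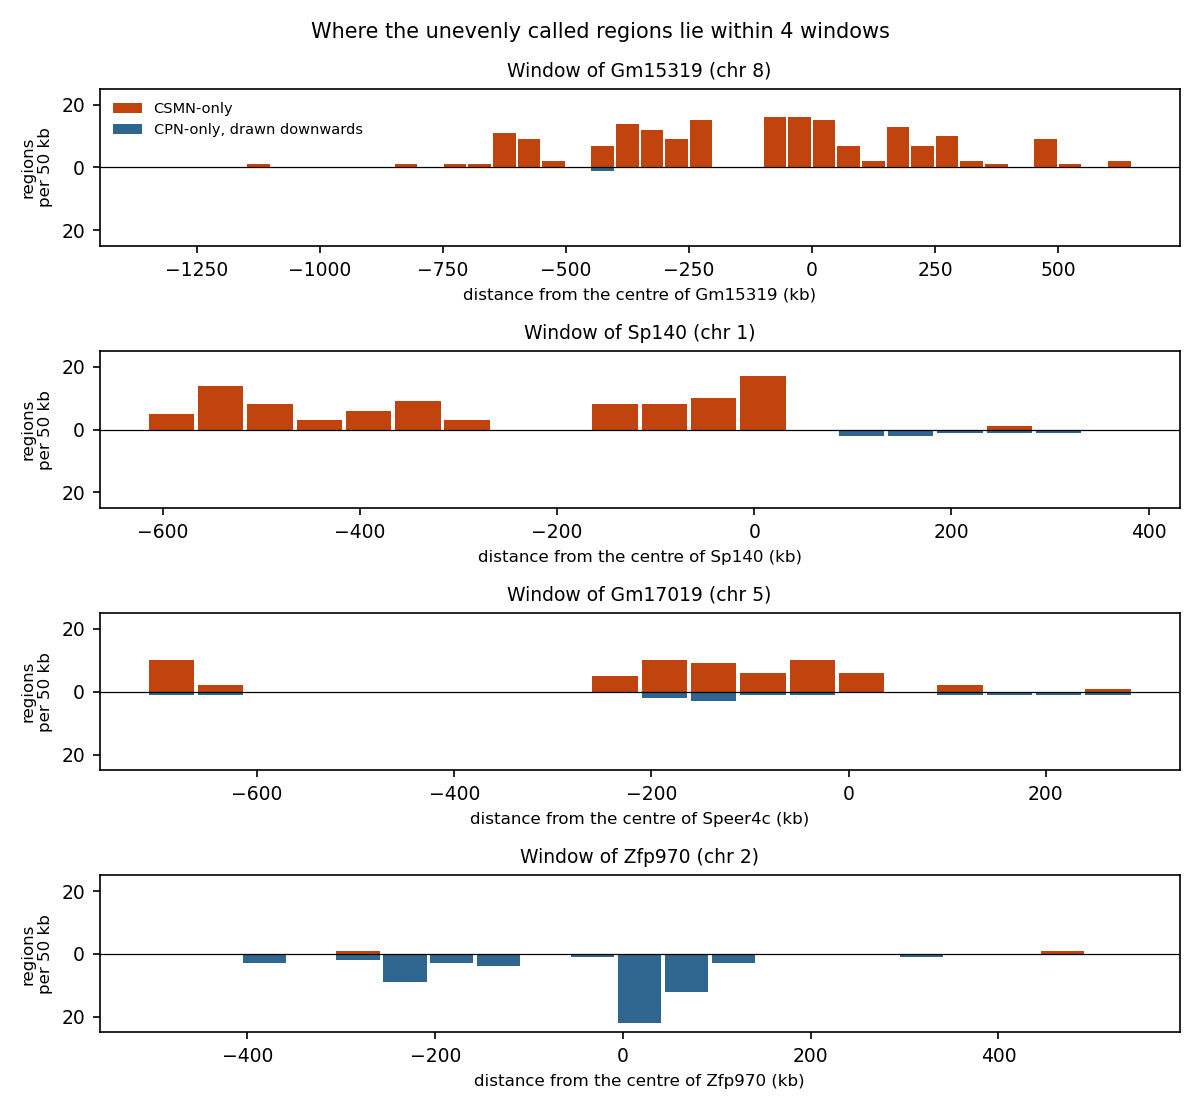
Number of CSMN-only regions (upwards) and CPN-only regions (downwards) per 50 kb along 4 windows, with distance in kb from the centre of Gm15319, Sp140, Speer4c and Zfp970. All CSMN-only regions of the Sp140 window but 1 stop just past Sp140. Those of the Gm15319 window come in clusters, mostly from 4930467E23Rik on, with empty bins between. CPN-only regions gather at and just to the right of Zfp970, with 22 in the fullest bin.

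In the Sp140 window the excess ended near the start of Sp100, a gene whose promoter is itself close to that of Gm7609. All 92 CSMN-only regions but 1 lay before chr1:85650001, and all 7 CPN-only regions lay after it. All 3 genes of the Sp100 family had more CSMN-only than CPN-only regions: Sp140 (chr1:85587491-85645040), a chromatin reader of immune cells, had 22 and 0, Sp110 had 17 and 0, and Sp100 had 2 and 0. Gm7592 (chr1:85326832-85555681) had 21 and 0, and Gm38510 (chr1:85155201-85309015) had 19 and 0. These counts are not separate, as genes with 10 kb on either side overlap, those of the Sp100 family among them. Over the 13 protein-coding genes of the window they came to 122 CSMN-only regions, where the window held 92. Highest pileups around Sp140, not corrected for depth, were 61 in CSMN, 54 in CPN 1 and 54 in CPN 2. In relative pileup CSMN was lower there: the 3 shared regions around Sp140 had a median log2 of CSMN over CPN of −0.45. Promoters of the genes Cab39 and Itm2c beyond it had lower pileups in CSMN than in either CPN list. Cab39, which activates the kinase LKB1, had a promoter pileup of 181 in CSMN, 281 in CPN 1 and 245 in CPN 2, and Itm2c, an integral membrane protein, had 113 in CSMN, 243 in CPN 1 and 177 in CPN 2. Background ratios around Sp140 had a median of 1.0 in each of CSMN, CPN 1 and CPN 2. That is the lowest value of the ratio, where 55.0% of all CSMN peaks, 41.1% of CPN 1 and 41.2% of CPN 2 sit. The median therefore cannot show that the backgrounds were equal. Around Gm38510, earlier in the stretch, the highest ratio was 1.20 in CSMN and 1.0 in CPN 1 and CPN 2.

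The windows on chromosome 14 held genes with provisional names almost throughout. In the Gm3072 window 65 regions were CSMN-only, 3 CPN-only and 9 shared. Gm3072 (chr14:41619276-41624650) had 9 CSMN-only regions and 0 CPN-only, 1700049E17Rik2 (chr14:41535425-41581305) had 6 and 0, and Gm2832 (chr14:41264670-41288486) had 5 and 0. The CPN lists had no peak within 10 kb of 1700049E17Rik2 or of Gm2832, and the highest CSMN pileups there were 43 and 95. Prxl2a, at the edge of the window, had a promoter pileup of 285 in CSMN, 394 in CPN 1 and 281 in CPN 2, with shared peaks as outside the windows.

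In the Gm8104 window 105 regions were CSMN-only, 5 CPN-only and 12 shared. Gm8104 (chr14:43057802-43114696) had 19 CSMN-only regions and 0 CPN-only, Gm8126 (chr14:43209293-43266470) had 17 and 0, and Gm21154 (chr14:43396709-43673070) had 14 and 0. The peaks were of modest height, with highest pileups around Gm8126 of 84 in CSMN, 42 in CPN 1 and 33 in CPN 2. Both eosinophil-associated ribonuclease genes of the window, Ear1 and Ear10, had 1 CSMN-only region and 0 CPN-only. The megabase between both chromosome 14 windows, which is not a member, had 28 CSMN-only regions and 0 CPN-only.

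In the Zfp982 window 7 of 9 zinc finger genes had more CSMN-only than CPN-only regions, 0 had fewer and 2 had equal numbers. Zfp982 (chr4:147443114-147516064) had 13 CSMN-only regions and 1 CPN-only, Zfp978 (chr4:147124882-147392027) had 12 and 2, and Zfp984 (chr4:147753974-147812229) had 8 and 1. The highest background ratio around Zfp982 was 2.70 in CSMN, 1.65 in CPN 1 and 1.72 in CPN 2. Its highest pileup was 120 in CSMN, 50 in CPN 1 and 50 in CPN 2. Unique genes at the far end of the window did not share this. Mfn2, which fuses mitochondria, had a promoter pileup of 167 in CSMN, 240 in CPN 1 and 165 in CPN 2, and had 0 CSMN-only regions and 1 CPN-only. The region at the start of Miip had a pileup of 270 in CSMN, 362 in CPN 1 and 248 in CPN 2.

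The Gm17019 window, which holds the Speer family of genes known from testis, differed less between libraries. It had 195 peaks in CSMN, 137 in CPN 1 and 161 in CPN 2, and 97 of its 229 regions were in all lists, with 61 CSMN-only and 13 CPN-only. Gm17019 (chr5:15028950-15033016) had 9 CSMN-only regions and 0 CPN-only, Gm21083 (chr5:15577293-15582092) had 7 and 2, and Speer4c (chr5:15709505-15714298) had 6 and 0. At a cut of 1.5 times the genome background, the share of raised peaks was well above that of other autosomal peaks in CSMN alone. The local background was above the cut in 32.8% of peaks in CSMN, 22.6% in CPN 1 and 13.7% in CPN 2. Outside the windows it was so in 9.70% in CSMN, 22.6% in CPN 1 and 24.0% in CPN 2. By the median ratio CPN 1 was raised as well, at 1.20 against 1.08 outside. The medians were 1.27 against 1.0 in CSMN and 1.09 against 1.08 in CPN 2. Cacna2d1, a calcium channel subunit of neurons whose gene begins in the window, had 5 CSMN-only regions and 9 CPN-only over its length, which extends past the window.

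The 2410141K09Rik window had the fewest peaks, 50 in CSMN, 6 in CPN 1 and 5 in CPN 2. Of its regions 42 were CSMN-only, 0 CPN-only and 3 shared. 2410141K09Rik (chr13:66418114-66441118) had 12 CSMN-only regions and 0 CPN-only, with highest pileups of 60 in CSMN, 28 in CPN 1 and 22 in CPN 2. LOC115488129 (chr13:66281485-66288700) and LOC115486435 (chr13:66597890-66598435) had 4 and 0 each. The other shared regions lay at Uqcrb, a subunit of respiratory complex III, with 202 in CSMN, 218 in CPN 1 and 167 in CPN 2, and Mterf3, a mitochondrial transcription regulator, with 345 in CSMN, 541 in CPN 1 and 292 in CPN 2.

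The Cwc22 window differed from the others in that a single stretch carried its excess. Cwc22 (chr2:77881159-77946356) had 19 CSMN-only regions with 10 kb on either side, 1 CPN-only and 3 shared. The background ratio of its 28 CSMN peaks had a median of 3.28 and ranged from 2.34 to 4.92. The 5 CPN 1 peaks there had a median of 1.08 and a range of 1.0 to 1.90, and the 14 CPN 2 peaks a median of 1.10 and a range of 1.0 to 1.90. Every CSMN peak at the gene was thus above every CPN peak. In the rest of the window the medians were 1.0 in CSMN (65 peaks), 1.0 in CPN 1 (53 peaks) and 1.0 in CPN 2 (65 peaks). The highest ratios there were 3.02 in CSMN, 1.98 in CPN 1 and 1.94 in CPN 2. The CSMN value lay in the raised stretch described next, which reaches beyond the gene. That rest held 22 CSMN-only and 7 CPN-only regions.

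The raised stretch was continuous. A run of 47 consecutive CSMN peaks with a background ratio above 1.5 began at chr2:77869710 and ended at chr2:78027041, a length of 157.3 kb that passes the end of the window. Of the 5 CPN 1 peaks in the run 1 was above 1.5, as was 1 of the 20 CPN 2 peaks, both at the Cwc22 promoter. The CSMN peak before the run had a ratio of 1.0 and the one after it 1.35. In the megabase before the run 0 of 62 CSMN peaks, 4 of 61 CPN 1 peaks and 6 of 73 CPN 2 peaks were above 1.5. In the megabase after it 3 of 30 CSMN peaks, 3 of 32 CPN 1 peaks and 3 of 40 CPN 2 peaks were above 1.5, with CSMN ratios of up to 2.34. The run was defined after its values were seen.

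The peaks on the Cwc22 stretch were high in pileup and low in fold. The median pileup of peaks at the gene was 69 in CSMN, 32 in CPN 1 and 20 in CPN 2, but the authors' fold had a median of 1.97 in CSMN, 3.62 in CPN 1 and 3.07 in CPN 2. At the promoter (chr2:77945609-77946627) the pileup was 585 in CSMN, 227 in CPN 1 and 169 in CPN 2. Its relative pileup was 55.6 in CSMN, 29.7 in CPN 1 and 28.9 in CPN 2, and its fold 11.10 in CSMN, 14.68 in CPN 1 and 14.02 in CPN 2. The order of the libraries at this promoter therefore turned with the measure. Once peaks of −log10 q under 5 were left out, the window had 21 CSMN-only regions and 13 CPN-only. The neighbouring genes showed no such excess: Zfp385b had 5 CSMN-only regions and 3 CPN-only, and Sestd1 had 4 and 3.

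**Figure D4:**
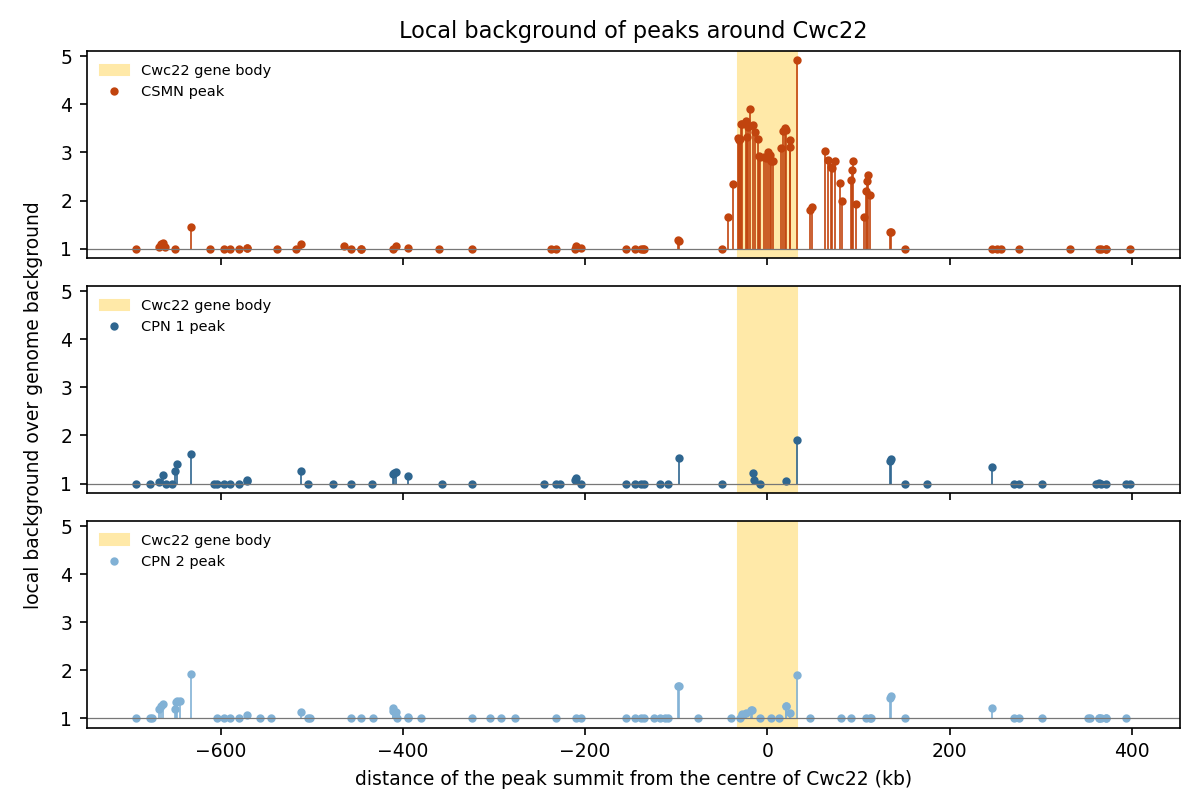
Local background over genome background of each peak (y axis) against the distance in kb of its summit from the centre of Cwc22, for CSMN, CPN 1 and CPN 2 from top to bottom; the shaded band is the gene body. CSMN peaks at the gene lie between 2.34 and 4.92, and CPN peaks there between 1.0 and 1.90.

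The Zfp970 window went the other way in its peak calls, while its shared regions had a median log2 relative pileup of −1.28, against −1.07 outside. Zfp970 (chr2:177464742-177479194), a zinc finger gene, had 0 CSMN-only regions and 13 CPN-only, of which 12 had a −log10 q of at least 5 in both CPN lists. It had 1 peak in CSMN, 18 in CPN 1 and 18 in CPN 2. The lncRNA gene Gm14403 next to it had 0 CSMN-only regions and 13 CPN-only, and 2 peaks in CSMN, 17 in CPN 1 and 18 in CPN 2; as a noncoding gene it falls outside the rule for named genes and was picked after its values were seen. Gm14410 (chr2:177190575-177206497) had 1 of each, and Gm14322 (chr2:177759149-177773399) had 0 and 1. The local background was raised in the CPN lists beside Zfp970, where the CPN-only regions were densest. The longest run of CPN 1 peaks above 1.5 times the genome background held 14 peaks over 26.6 kb, and that of CPN 2 held 15 peaks over 28.8 kb. The CSMN list had 2 peaks in either run, with a median ratio of 1.0, against 2.14 in CPN 1 in its own run and 1.94 in CPN 2 in its own. Over the whole window 0 of 18 CSMN peaks, 34 of 98 CPN 1 peaks (34.7%) and 32 of 128 CPN 2 peaks (25%) were above 1.5. Outside the windows the shares were 9.70% in CSMN, 22.6% in CPN 1 and 24.0% in CPN 2, so the share of CPN 2 over the whole window was near that of the genome.

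Of the 14 promoters of the Zfp970 window, 7 had a peak in CSMN, 8 in CPN 1 and 8 in CPN 2, and 6 had one in all lists. A peak overlapped the promoter of Zfp970 itself with a pileup, not corrected for depth, of 120 in CSMN, 220 in CPN 1 and 104 in CPN 2. Its log2 relative pileup of CSMN over CPN was −0.99. At Gm14410 the pileup was 341 in CSMN, 971 in CPN 1 and 681 in CPN 2, and the relative pileup was 32.4 in CSMN, 127 in CPN 1 and 117 in CPN 2, the widest gap toward CPN among its shared regions. At Gm14325 it was 247 in CSMN, 444 in CPN 1 and 325 in CPN 2, and at Gm14326 209 in CSMN, 507 in CPN 1 and 374 in CPN 2. Of the 7 genes of the window whose promoter was at least 80% identical to another, 5 had a peak in all lists and 1 had a peak in CPN 1 and CPN 2 but not in CSMN. Outside the windows no such counts were made.

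**Figure D5:**
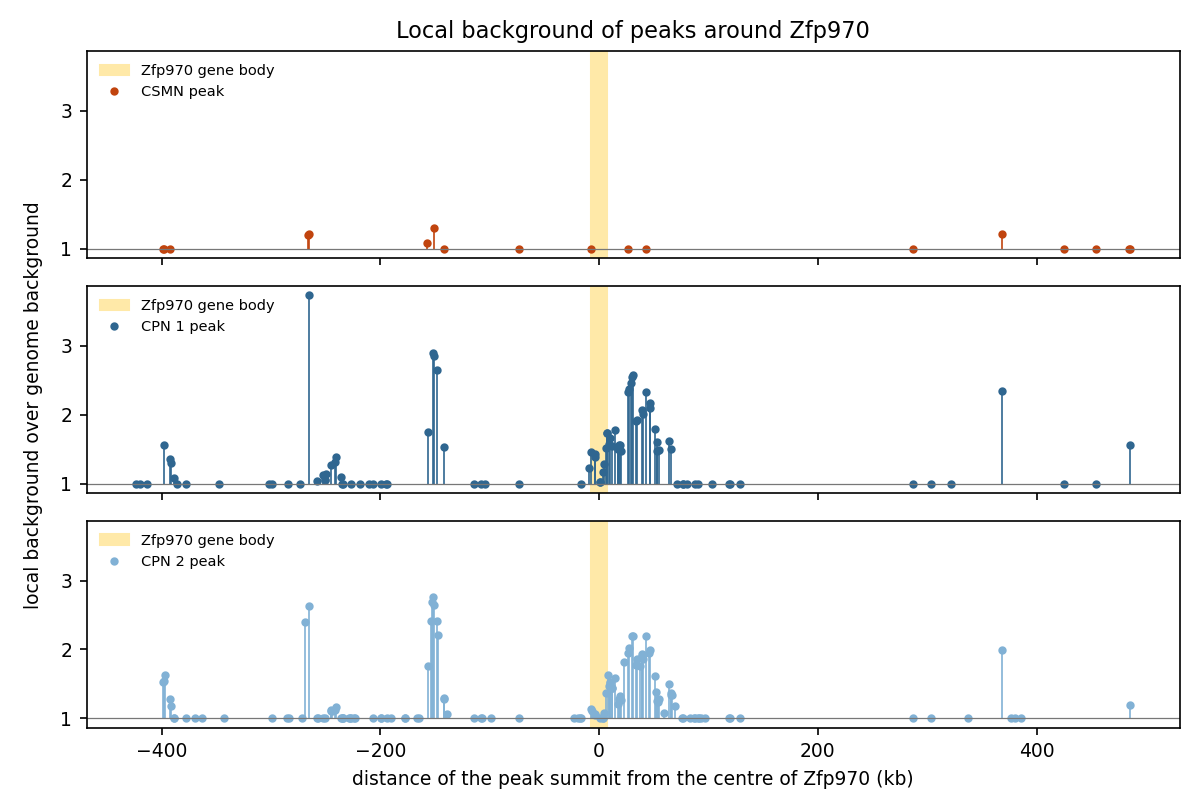
Local background over genome background of each peak (y axis) against the distance in kb of its summit from the centre of Zfp970, for CSMN, CPN 1 and CPN 2 from top to bottom; the shaded band is the gene body. Of the peaks in the window 0 in CSMN, 34.7% in CPN 1 and 25% in CPN 2 are above 1.5, where outside the windows 9.70% in CSMN, 22.6% in CPN 1 and 24.0% in CPN 2 are.

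Across the 8 windows picked for CSMN, counts of genes by class of name were as follows, with no test of a difference between classes. The windows were picked for an excess in CSMN, so genes with more CSMN-only regions were to be found there by that choice. The same holds for such counts in single windows above. No share over genes outside the windows was computed. Of the 53 protein-coding genes with provisional names, 33 had more CSMN-only than CPN-only regions, 2 had fewer and 17 had no region. Of the 11 zinc finger genes 9 had more and 0 fewer. Of the 27 genes of no class fixed by name, Cwc22 among them, 8 had more and 7 fewer. Overlapping genes count the same region more than once. At promoters, 8 of the 52 genes whose promoter was at least 80% identical to another of its window had a peak in CSMN and in neither CPN list, and 2 had one in all lists. Of the 71 genes under 80%, 3 had a peak in CSMN alone and 21 in all lists. The 658 CSMN-only regions thus lay for the most part outside promoters. No such promoter counts were made outside the windows, so none of these shares can be read as high or low.

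The excess passed beyond some windows and stopped at the edge of others. The megabase before the Zfp982 window had 40 CSMN-only regions and 0 CPN-only, that before the 2410141K09Rik window 34 and 0, and that before the Gm17019 window 38 and 7. The megabases on either side of the Sp140 window had 14 and 16 before it, and 13 and 15 after it, close to the balance of the genome, where bins had a median of 9 CSMN-only regions and of 14 CPN-only.

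Peaks within 1 kb of the ends of marker genes were counted in each list. CSMN markers and the CPN markers reported had equal counts in every list, so the counts cannot tell the cell-type labels apart. No share over all genes was computed. All 5 CSMN markers had such a peak in every list. Of the 4 CPN markers reported, 3 had one in CSMN, 3 in CPN 1 and 3 in CPN 2, with Inhba lacking one in every list. Of 5 markers of excitatory neurons, 4 had one in CSMN, 4 in CPN 1 and 5 in CPN 2, with Rbfox3 missing in CSMN and Slc17a7 in CPN 1. Markers of other cells also had peaks: 4 of 4 interneuron and 3 of 3 endothelial markers had a peak in every list, 2 of 4 microglial markers in CSMN, 3 in CPN 1 and 2 in CPN 2, 2 of 4 astrocyte markers in CSMN, 2 in CPN 1 and 3 in CPN 2, and 3 of 4 oligodendrocyte lineage markers in CSMN, 4 in CPN 1 and 4 in CPN 2. Their part in the windows was not tested.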

How the data were processed

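ATAC-seq peaks of 1 CSMN and 2 CPN libraries were used. Tools listed in the submitters' processing notes are MACS2 2.2.7.1, BWA 0.7.17 and bedtools 2.29.2, with the build mm10. Read filters, treatment of reads with several placements, duplicates and the shift for the transposase are not given in the sources used here. Reads on repeats can be dropped or spread by these steps, which would change every value here. The deposited lists give a score for each peak (the whole part of 10 times its −log10 q in over 99.9% of peaks), and a fold, a −log10 p and a −log10 q that are the authors' own. Peak names show that the authors called each library alone. No file gives read totals.

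From the deposited fold and −log10 p of a peak, its whole pileup and local background were solved, taking the fold as pileup plus 1 divided by background plus 1, an assumption, and the p as the Poisson upper tail. Pileups came out whole within 0.01 of a step in over 99.9% of peaks of each list, and 0 peaks had a background below the genome value. The solver was tested on simulated data. Lists were merged by overlap of at least 1 bp, and a library's background counted as highest or lowest only when over 0.1% from the others. Gene and promoter tables are RefSeq GRCm38.p6, without exons or UTRs. Genes named are Cwc22, Zfp970 and, per window, the 3 protein-coding genes with the most CSMN-only regions within 10 kb (CPN-only around Zfp970). Identity used edlib 1.3.9.post1. Windows, lists and genes were chosen with earlier results of these data known. Alternatives were a −log10 q of at least 5, equal list lengths, 50% overlap, membership wholly inside a window, leaving out a CPN replicate and, for the background, no pseudocount, shared peaks alone and the mean; those on shared pileups were chosen after seeing the data. The labels number the libraries as replicates, and whether they came from separate mice was not given. With 1 CSMN library no p-value between cell types was computed. Of the CPN marker list, 1 gene is not reported here. Intervals cover counting error only.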

Additional observations from a re-analysis of the deposited data

How the results depend on the processing

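No paired analysis was possible because CSMN has 1 library and no result comes from a test between the groups. The 658 CSMN-only regions of the 8 windows stayed within 1.5 times under every alternative, although the autosomal count fell to 4416 when peaks of −log10 q under 5 were dropped, against 23383. The 60 CPN-only regions of the Zfp970 window ranged from 83 to 113 when 1 CPN library was left out, since a single CPN list then sufficed: 113 without CPN replicate 1 and 83 without CPN replicate 2. The median background ratio of CSMN over the 8 windows, 1.0, was 1.30 in shared peaks alone and 1.33 as a mean, as 55.0% of all CSMN peaks sit at the genome background. With −log10 q of at least 5 required, the excess of CSMN-only over CPN-only regions fell to 8 in the Cwc22 window, against 33, and was 15 without CPN replicate 1 and 51 with lists of equal length. The log2 pileup of CSMN over CPN in shared regions, less that of other autosomal regions, was 0.23 in the Cwc22 window and −0.21 in the Zfp970 window. With the authors' fold in its place it was −0.0055 and 0.25, so both turned sign, as the fold divides by the local background. Among values of single windows, 73 held under the alternatives, 24 moved and those 2 turned. Depth limits these values: a peak missing from a list is not evidence of closed DNA, and the single CSMN library has no replicate check.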

Other observations

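Other autosomal bins of 1 Mb outside the windows had an excess of CSMN-only regions of similar size. The bin that starts at 60 Mb on chromosome 4, which holds major urinary protein genes, had 51 CSMN-only regions, 0 CPN-only ones, and ranked 6 of 2401. The bin at 18 Mb on chromosome 12 had 40 and 0, and the bin at 71 Mb on chromosome 8 had 45 and 9, with 66 regions in all lists. At the other end, the bin that holds Zfp970 had the lowest balance, with 2 CSMN-only and 60 CPN-only regions, but others came close. The bin at 88 Mb on chromosome 11 had 3 and 60, the bin at 111 Mb on chromosome 5 had 3 and 57, and the bin at 61 Mb on chromosome 9 had 6 and 58.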
